A study of Mus musculus with 10 samples.

Results

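Messenger RNA of 33 genes of glucose uptake, glycolysis, the pyruvate and lactate branch and the citrate cycle was examined in mouse embryoid bodies in which the transcription factor Etv2 was switched on. The 33 genes were chosen as a list of symbols. All 33 were found among the 23337 genes of the deposited count table, Pkm under its older symbol Pkm2, and all 33 were among the 14548 genes that passed the filter on low counts. By role, 16 belong to uptake and glycolysis, 6 to the branch at pyruvate and lactate, and 11 to the citrate cycle.

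Embryoid bodies are aggregates of differentiating embryonic stem cells, here of an iHA-Etv2 line in which doxycycline induces an HA-tagged Etv2, an ETS factor required for blood and endothelium. There were 5 groups with 2 libraries each. They were untreated embryoid bodies at day 2, doxycycline-treated ones at day 2, untreated ones at day 2.5, doxycycline-treated ones at day 2.5, and doxycycline-treated samples of day 2.5 labelled positive for Flk1, the receptor encoded by Kdr that marks precursors of blood and endothelium. All groups carry the inducible transgene, and the labels give no number of clones or pooled bodies. No group received doxycycline without the transgene. Differences with doxycycline below can therefore come from Etv2 or from the drug, which cannot be told apart here. For the remaining groups the Flk1 label reads false, which leaves it unsaid whether cells were sorted as negative or taken unsorted. Etv2 averaged 16.9 and 7.04 CPM (counts scaled to library size) in the untreated groups of day 2 and day 2.5, against 455, 263 and 313 CPM in the doxycycline groups of day 2 and day 2.5 and the Flk1-positive group.

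Glycolysis splits glucose into pyruvate in the cytosol, with a small net yield of ATP and NADH. Lactate dehydrogenase turns pyruvate into lactate, which leaves the cell through monocarboxylate transporters, while the pyruvate dehydrogenase complex passes pyruvate to the citrate cycle in mitochondria. Pyruvate dehydrogenase kinases switch that complex off by phosphorylation. Pluripotent cells are known for a high rate of glycolysis, and several of these genes are known targets of hypoxia-inducible factors (HIF) and of Myc.

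Total counts per library ran from 18074070 to 36068329. The 33 members held 1.18% to 1.19% of all counts in untreated day 2 libraries and 0.669% to 0.681% in Flk1-positive libraries. Endothelial and blood precursor markers (11 genes, Kdr among them) summed to 24.1 to 68.1 CPM in the untreated libraries, 260.2 to 299 CPM with doxycycline at day 2, 1407 to 1469 CPM with doxycycline at day 2.5 and 3529 to 3656 CPM in Flk1-positive libraries. Pluripotent epiblast markers (8 genes) summed to 1979 to 2129 CPM in untreated day 2 libraries and 899 to 963 CPM in Flk1-positive ones. Fibroblast markers, which feeder cells would carry, stayed between 21.1 and 40.1 CPM in every library. Of the erythroid markers, Hbb-b1 was at 0 in every library and Hbb-bh1 and Hba-x were each under 3 counts. The pair of doxycycline day 2 libraries differed most from each other, at a chi-square of 32.0 per gene where other pairs had 3.33 to 9.65, and that difference ran with exon length (rank correlation across genes -0.45) and with GC content (0.32). The difference within the Flk1-positive pair had a rank correlation with GC content of 0.37 and with exon length of -0.12. In RNA from whole cell populations, fewer cells of a type and less RNA per cell cannot be told apart.

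Several glycolytic genes have near-identical copies elsewhere in the genome, which limits what their counts hold. In the GENCODE M21 annotation of GRCm38, 82.5% of the 50-base words of the Gapdh transcript occur in other genes (222 genes in all, the pseudogene Gm7336 first), as do 72.2% for Eno1, 68% for Pgk1, 41.5% for Pgam1 and 34.4% for Pkm2. Eno1, encoding the enolase of most tissues, held 138 counts over the 10 libraries, while its copy Gm5506 (Eno1b) held 161506. Per kilobase of transcript, Gapdh averaged 27.4 CPM in untreated day 2 samples against 312 for Tpi1, which acts one step before it, and 1300.1 for Pkm2. How reads with several matches were counted is not given in the sources used here. The levels of Gapdh, Pgk1, Pgam1 and Eno1 are therefore uncertain, and 17 members share no 50-base word with another gene.

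**Figure D1:**
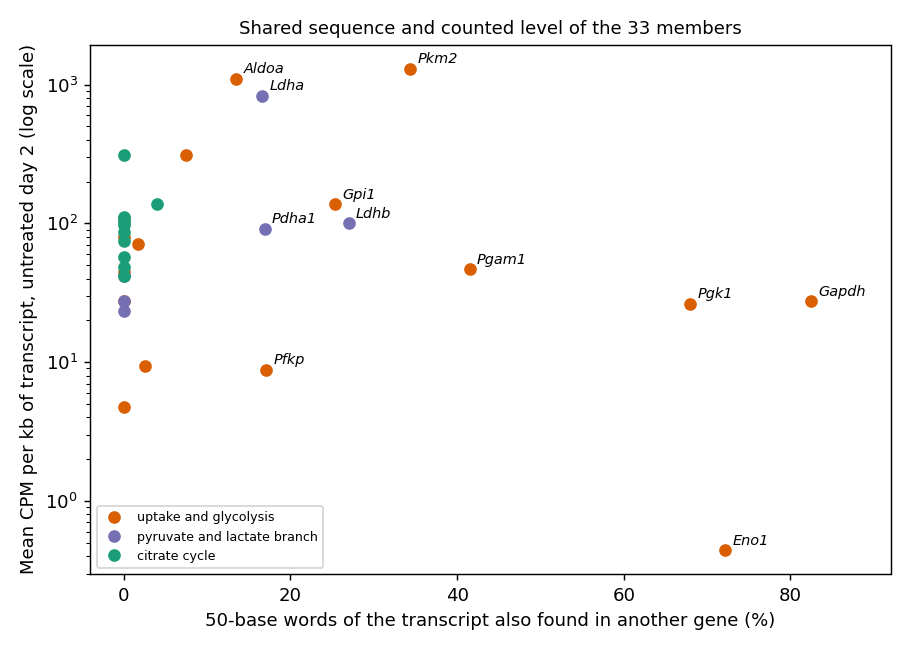
Share of each member's 50-base transcript words that also occur in another gene (x axis, percent) against its mean level in untreated day 2 samples (y axis, CPM per kilobase of transcript, log scale), 1 point per gene, coloured by role. Gapdh, Eno1, Pgk1 and Pgam1 lie to the right at 41.5% to 82.5% and below Pkm2, Aldoa, Ldha and Tpi1.

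Most members of the glycolytic and lactate groups were lower in Flk1-positive cells. So were 5 of 11 citrate cycle genes against doxycycline and 6 of 11 against untreated samples of day 2.5. In size, citrate cycle genes differed by at most 0.66 on the log2 scale in any comparison, and branch genes by up to 1.84. The differences were tested in 1 model over all genes (edgeR's quasi-likelihood test with Benjamini-Hochberg adjustment, threshold 0.05), which gives every adjusted p below. At day 2, 3 of 16 uptake and glycolysis genes, 1 of 6 branch genes and 0 of 11 citrate cycle genes were lower with doxycycline and none of the 33 was higher, where 1.56% of all genes tested were lower and 3.11% higher. At day 2.5, doxycycline lowered 5 and raised 3 of 16 glycolytic genes, lowered 2 and raised 1 of 6 branch genes and lowered 2 of 11 cycle genes, against a background of 13.8% lower and 16.1% higher. Flk1-positive samples compared with doxycycline samples of the same day had 10 of 16 glycolytic genes lower and 1 higher, 6 of 6 branch genes lower, and 5 of 11 cycle genes lower, while 21.3% of all genes were lower and 20.5% higher. Their median log2 fold changes were -0.52, -0.92 and -0.17, beside 0.00 over all genes. Against untreated day 2.5 samples the Flk1-positive samples had 11 of 16 glycolytic genes lower and 2 higher, 5 of 6 branch genes lower and 1 higher, and 6 of 11 cycle genes lower, beside 26.6% of all genes lower and 28.6% higher. The doxycycline day 2.5 libraries enter as treated in one comparison and as reference in another, and the untreated day 2.5 libraries are the reference in both of their comparisons, so these results are not independent.

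The 5 calls among cycle genes in Flk1-positive against doxycycline samples were unstable. With the size factors of DESeq2 the count was 3, with total counts 2, with DESeq2's own test 3, and leaving out single libraries gave 1 to 6. The day 2 count of branch genes also moved: without doxycycline day 2 replicate 1, and with the replicate block and trends over exon length and GC content removed, Pdk1 was called higher (1 of 6) and Ldha lower beside Slc16a3 (2 of 6), and with the trends alone removed Pdk1 was called higher.

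**Figure D2:**
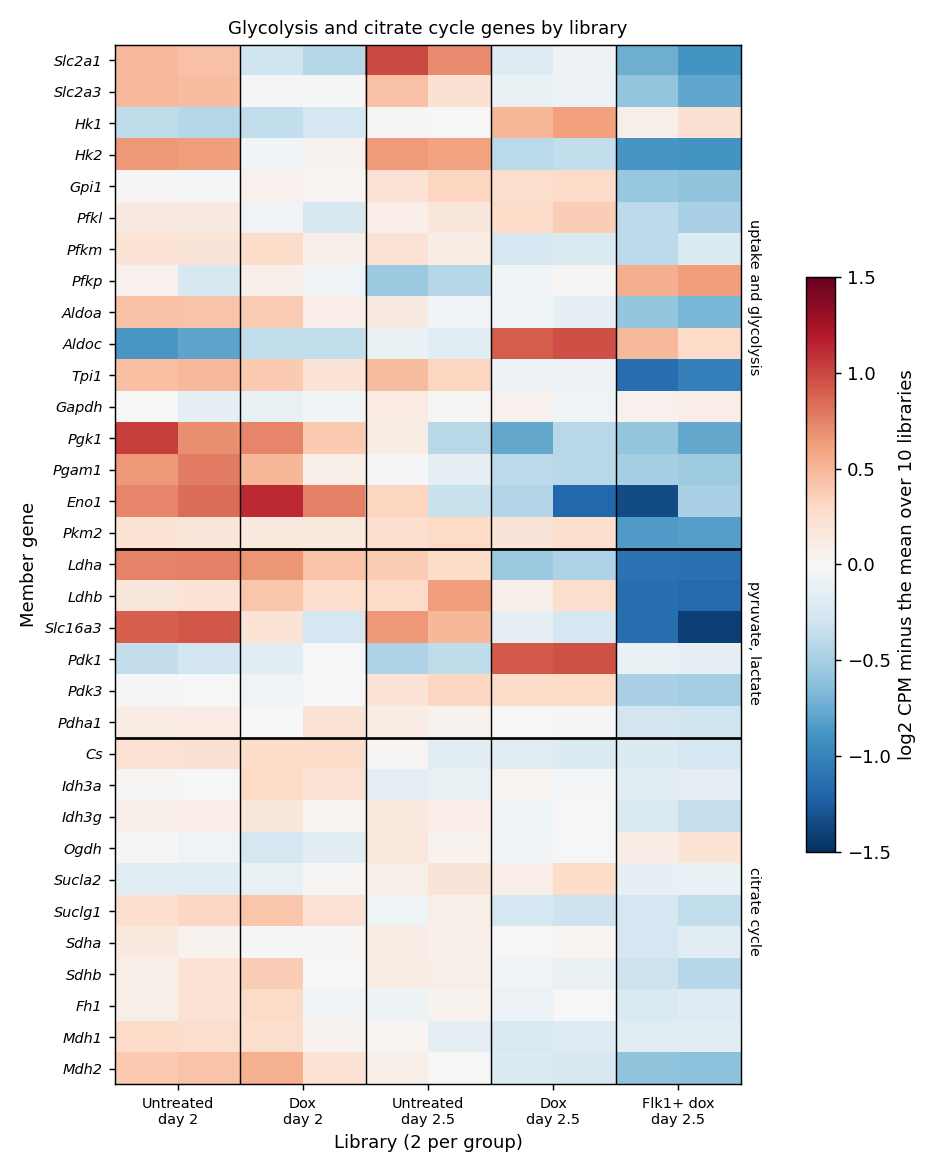
Level of each of the 33 members (rows, by role) in each of the 10 libraries (columns, 2 per group), as log2 CPM minus the gene's mean over the libraries. Slc2a1, Hk2, Ldha and Slc16a3 are red in untreated and blue in Flk1-positive libraries, Pdk1 and Aldoc are red in the doxycycline day 2.5 libraries, and most citrate cycle rows are pale.

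Slc2a1, Slc2a3 and Hk2, genes of glucose entry and of its first phosphorylation, were lower at both days of doxycycline treatment. Slc2a1 encodes GLUT1, a glucose transporter of most cell types, and Slc2a3 encodes GLUT3, a transporter with high affinity for glucose. Slc2a1 measured 233 and 226 CPM in untreated day 2 libraries, 135 and 124 with doxycycline at day 2, 329 and 271 in untreated day 2.5 libraries, 145 and 157 in doxycycline day 2.5 libraries, and 100.1 and 89.4 in Flk1-positive libraries. Each treated library was below each untreated one. The fall was 1.77-fold at day 2 (log2 -0.82 ± 0.10 SE, adjusted p = 1.39e-04) and 1.99-fold at day 2.5 (log2 -0.99 ± 0.10, adjusted p = 2.87e-06), and Flk1-positive samples were a further 1.59-fold lower than doxycycline samples (adjusted p = 1.34e-04).

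Slc2a3 measured 320.2 and 314 CPM, then 225 and 225, then 309 and 267, then 213 and 216, and 152 and 133 in the same order of groups. It was lower with doxycycline by 1.41-fold at day 2 (adjusted p = 0.00539) and 1.34-fold at day 2.5 (adjusted p = 0.00298), and in Flk1-positive against doxycycline samples by 1.51-fold (adjusted p = 1.57e-04). Without either untreated day 2 library, and in a fit of the compared groups alone, the day 2 difference missed the threshold (adjusted p = 0.0623 to 0.0898), and without untreated day 2.5 replicate 1 so did the day 2.5 difference (adjusted p = 0.0576). Which transporter held the higher level per length depended on the length used. Slc2a1 was 59.9% of the pair in untreated day 2 samples per kilobase of exon and 46.8% per kilobase of the longest coding transcript.

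The hexokinases, which trap glucose by phosphorylation, moved in opposite directions at day 2.5. Hk2, known as the hexokinase of fast-growing and insulin-responsive cells, measured 249 and 245 CPM in untreated day 2, 154 and 164 in doxycycline day 2, 246 and 241 in untreated day 2.5, 119.6 and 122 in doxycycline day 2.5, and 85.9 and 85.1 in Flk1-positive libraries. It fell 1.55-fold at day 2 (adjusted p = 1.61e-04), 2.02-fold at day 2.5 (log2 -1.01 ± 0.08, adjusted p = 1.63e-07) and 1.41-fold from doxycycline to Flk1-positive samples (adjusted p = 2.16e-04). Hk1, the broadly expressed hexokinase, measured 41.1 and 39.7, 41.2 and 44.3, 53.8 and 53.2, 75.4 and 81.6, and 56.7 and 62.6 CPM in that order. Hk1 rose 1.47-fold with doxycycline at day 2.5 (log2 0.55 ± 0.10, adjusted p = 5.13e-04) and was 1.32-fold lower in Flk1-positive than in doxycycline samples (adjusted p = 0.00444). The latter difference missed the threshold without doxycycline day 2.5 replicate 2 or Flk1-positive replicate 1 (adjusted p = 0.0648 to 0.0709). Per kilobase of exon, Hk2 made up 89.7% ± 0.0945 of the pair in untreated day 2 samples, 86.7% ± 0.0543 in untreated day 2.5 samples, 68.7% ± 0.911 in doxycycline day 2.5 samples and 67.2% ± 1.70 in Flk1-positive samples (SD, n = 2). Its share depended on the length used. Per kilobase of the longest coding transcript it was 82.6%, 78.0%, 54.4% and 52.7% in the same order.

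Among the middle steps, the messenger RNA of phosphofructokinase and aldolase shifted between paralogs. Phosphofructokinase commits sugar to glycolysis, and its liver-type gene Pfkl was the most abundant per length of the trio. Pfkl measured 443 and 472 CPM in doxycycline day 2.5 libraries and 279 and 261 in Flk1-positive ones, a 1.69-fold fall (adjusted p = 9.78e-06), while doxycycline itself gave a log2 difference of 0.18 ± 0.09 that missed the threshold (adjusted p = 0.137). Pfkp, the platelet-type gene, was the only one of 16 glycolytic genes higher in Flk1-positive than in doxycycline samples. It measured 26.2 and 28.7 CPM in untreated day 2.5 libraries, 37.5 and 38.9 with doxycycline and 56.2 and 59.3 in Flk1-positive libraries, with no overlap between the groups. The rise was 1.39-fold with doxycycline (adjusted p = 0.00737) and 1.51-fold from doxycycline to Flk1-positive samples (log2 0.60 ± 0.12, adjusted p = 9.44e-04). The first of these missed the threshold without doxycycline day 2.5 replicate 2 or untreated day 2.5 replicate 1 (adjusted p = 0.0642 to 0.0768) and with trends over exon length and GC content removed (adjusted p = 0.0600). Per kilobase of exon, the Pfkp share of the trio was 2.39% ± 0.127 in untreated day 2.5, 3.20% ± 0.0389 in doxycycline and 6.98% ± 0.280 in Flk1-positive samples. Per kilobase of transcript it was 4.67%, 6.05% and 13.2%. In the same groups the Pfkm share per kilobase of exon was 27.2% ± 1.72, 19.9% ± 0.478 and 27.5% ± 2.62. The Pfkl share was 70.4% ± 1.59, 76.9% ± 0.516 and 65.5% ± 2.90. The Pfkm share in Flk1-positive samples was thus near that in untreated ones. Part of the Pfkp transcript overlaps Pitrm1, with which it shares 17.1% of its 50-base words. The part of those reads in the Pfkp difference was not tested. Pfkm, the muscle-type gene, fell 1.32-fold with doxycycline at day 2.5 (adjusted p = 0.00794), a call lost without the same 2 libraries (adjusted p = 0.0535 to 0.0748).

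Aldolase splits fructose bisphosphate, with Aldoa as the general form and Aldoc as the form typical of brain. Aldoc lies on chromosome 11 at 78322968 to 78327781, plus strand, and shares no 50-base word with another gene. It measured 12.9 and 13.6 CPM in untreated day 2, 18.3 and 18.2 in doxycycline day 2, 22.0 and 21.1 in untreated day 2.5, 44.1 and 46.2 in doxycycline day 2.5, and 33.1 and 28.8 in Flk1-positive libraries. It was higher with doxycycline at day 2.5 by 2.10-fold (log2 1.07 ± 0.12, adjusted p = 6.24e-06) and lower by 1.46-fold in Flk1-positive than in doxycycline samples (adjusted p = 0.00183). The day 2 difference was of log2 0.46 ± 0.13 and missed the threshold (adjusted p = 0.0547). Aldoa fell from 1199 and 1157 CPM in doxycycline to 839.6 and 785 CPM in Flk1-positive libraries (1.45-fold, adjusted p = 4.80e-04). Aldoc stayed a minor form of the pair. Its share per kilobase of exon was 0.690% ± 0.0298 in untreated day 2 samples and 1.45% ± 0.0766 in untreated day 2.5 samples. It was 3.31% ± 0.184 in doxycycline day 2.5 samples and 3.28% ± 0.164 in Flk1-positive samples.

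Messenger RNA of several abundant enzymes of the pathway was at its lowest in Flk1-positive cells. Pkm2, the pyruvate kinase gene that forms pyruvate and ATP, had the highest CPM per kilobase of the 33 in every group. It ranged from 3044 to 3402 CPM over the 8 libraries that are not Flk1-positive and measured 1536 and 1557 CPM in the Flk1-positive ones. Doxycycline against untreated at day 2.5 gave a log2 difference of -0.06 ± 0.07 (adjusted p = 0.616), whereas Flk1-positive against doxycycline gave a 2.08-fold fall (log2 -1.06 ± 0.08, adjusted p = 7.52e-08). Counts per gene do not separate its spliced forms. Tpi1, which interconverts the triose phosphates, measured 507 and 454 CPM in untreated day 2.5, 345 and 342 in doxycycline day 2.5, and 164 and 179 in Flk1-positive libraries. It fell 1.40-fold with doxycycline (adjusted p = 9.94e-04) and 2.01-fold from doxycycline to Flk1-positive samples (adjusted p = 1.09e-06). Gpi1, the glucose phosphate isomerase, measured 476 and 485 CPM in doxycycline day 2.5 libraries and 268 and 262 in Flk1-positive ones (1.81-fold lower, adjusted p = 1.19e-06).

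The 4 members with largely shared sequence differed in their calls. Gapdh, for which the study also lists a qPCR probe, lay between 37.0 and 44.1 CPM in all 10 libraries and passed the threshold in none of the 7 comparisons, and no other gene's level was read against it here. Pgk1, which makes the first ATP of the pathway, was 1.46-fold lower in Flk1-positive than in untreated samples (adjusted p = 0.0232), and Pgam1, the phosphoglycerate mutase, 1.35-fold lower (adjusted p = 0.00808). Both calls were lost without untreated day 2.5 replicate 1, with an adjusted p of 0.322 for Pgk1 and 0.0613 for Pgam1, and that of Pgk1 also without Flk1-positive replicate 2 (adjusted p = 0.110). From day 2 to day 2.5 Pgk1 fell 2.01-fold in untreated samples (adjusted p = 0.00195, lost without untreated day 2.5 replicate 2 at 0.0561) and 2.22-fold in doxycycline samples (adjusted p = 1.37e-04). Pgam1 fell 1.73-fold and 1.63-fold over the same interval (adjusted p = 7.12e-04 and 2.69e-04). With the counts of Gm5506 added to those of Eno1, a sum chosen after the counts were seen, enolase was lower in Flk1-positive than in doxycycline samples (log2 -0.46 ± 0.14, adjusted p = 0.0142).

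**Figure D3:**
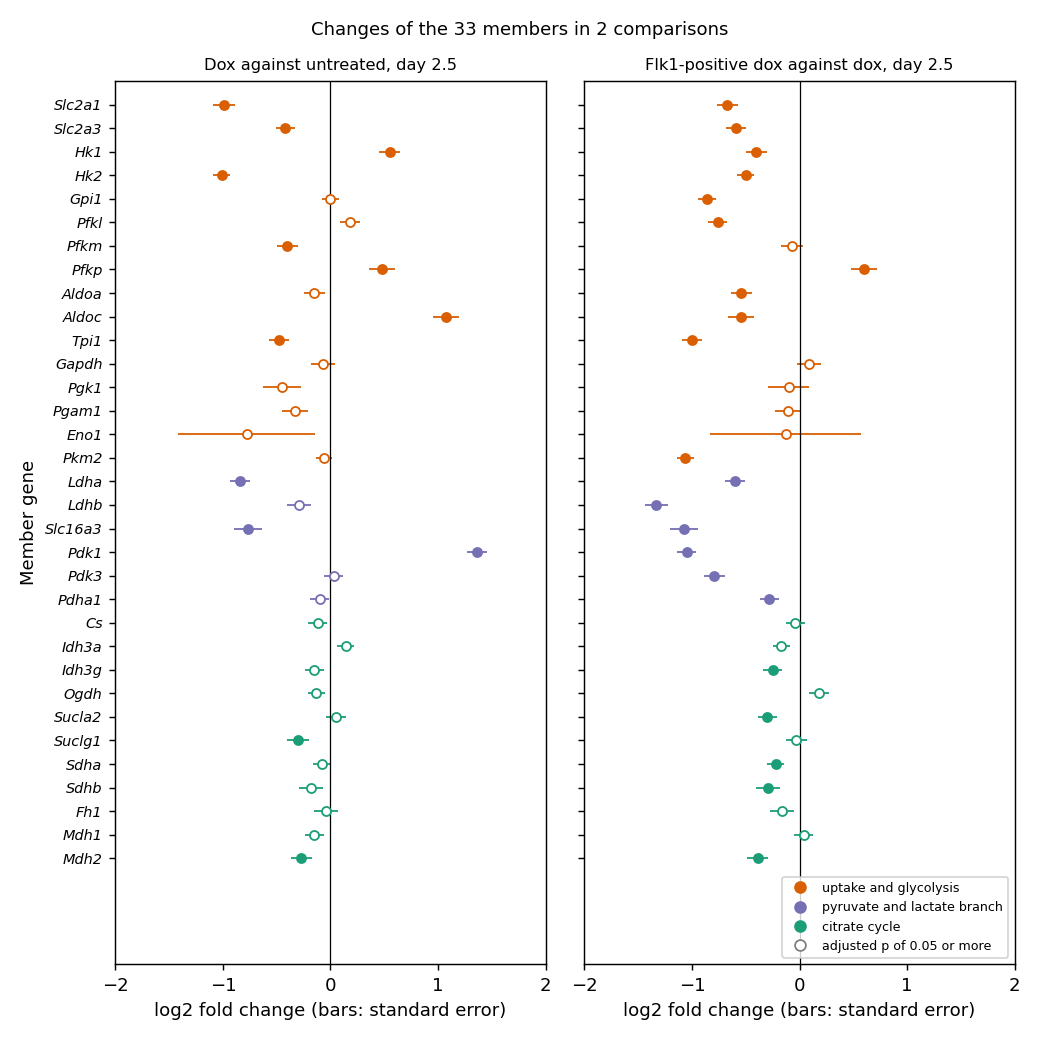
Log2 fold changes of the 33 members (points) with their standard errors (bars) for doxycycline against untreated at day 2.5 (left) and Flk1-positive against doxycycline at day 2.5 (right), filled where the adjusted p is under 0.05. Pdk1 and Aldoc lie right of 0 on the left and left of 0 on the right, and Pfkp lies right of 0 in both panels.

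Pyruvate either becomes lactate or enters the mitochondria, and 6 members act at this branch. Pdk1 encodes a pyruvate dehydrogenase kinase, Ldhb the lactate dehydrogenase subunit typical of heart, and Slc16a3 the lactate exporter MCT4. The 250 bases before the RefSeq start (GRCm38.p6) are shown for these 3 genes and for Aldoc, since the largest absolute log2 changes in the doxycycline day 2.5 and Flk1-positive against doxycycline comparisons were theirs. The windows are chr2:71872974-71873223 on the plus strand for Pdk1, chr6:142507958-142508207 on the minus strand for Ldhb, chr11:120948817-120949066 on the plus strand for Slc16a3 and chr11:78322823-78323072 on the plus strand for Aldoc. Capitals mark the motifs searched on both strands, which were ACGTG and GCGTG (cores of the hypoxia response element), CACGTG (the E-box, which holds ACGTG) and CCGGAA (the core bound by ETS factors, TTCCGG on the other strand).
Pdk1: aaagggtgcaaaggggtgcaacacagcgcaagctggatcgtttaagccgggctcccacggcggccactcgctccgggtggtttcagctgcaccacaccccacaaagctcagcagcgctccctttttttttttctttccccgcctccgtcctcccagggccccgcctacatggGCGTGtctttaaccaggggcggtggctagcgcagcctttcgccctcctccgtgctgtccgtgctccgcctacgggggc
Ldhb: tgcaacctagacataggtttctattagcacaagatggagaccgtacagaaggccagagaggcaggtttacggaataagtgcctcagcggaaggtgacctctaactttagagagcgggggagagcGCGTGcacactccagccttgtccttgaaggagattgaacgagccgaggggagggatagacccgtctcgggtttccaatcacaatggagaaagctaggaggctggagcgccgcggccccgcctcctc
Slc16a3: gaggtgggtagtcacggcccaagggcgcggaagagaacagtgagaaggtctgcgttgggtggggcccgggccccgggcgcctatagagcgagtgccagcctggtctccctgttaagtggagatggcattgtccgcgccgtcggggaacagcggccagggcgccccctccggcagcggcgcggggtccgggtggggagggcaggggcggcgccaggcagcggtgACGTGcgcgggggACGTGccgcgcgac
Aldoc: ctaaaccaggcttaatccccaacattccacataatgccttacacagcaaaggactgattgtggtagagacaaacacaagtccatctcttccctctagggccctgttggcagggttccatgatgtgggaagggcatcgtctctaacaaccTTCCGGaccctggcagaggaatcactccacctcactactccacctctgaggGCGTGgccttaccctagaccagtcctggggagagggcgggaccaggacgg
The Slc16a3 window holds ACGTG at 27 and again at 14 bases before the start, and those of Pdk1, Ldhb and Aldoc hold GCGTG at 78, 126 and 50 bases before it. Of the 4, the Aldoc window alone has CCGGAA, as TTCCGG at 101 bases before the start. The shorter GGAA was not searched or marked, and it occurs in other windows, such as those of Ldhb and Slc16a3. In GENCODE M21 the Slc16a3 gene starts at 120948480 and the Aldoc gene at 78322968, both on the plus strand. The matches in the Slc16a3 and Aldoc windows therefore lie inside the annotated genes. RefSeq promoters were found for 31 of the 33 members, and 1 window was taken for each. The windows of all genes set beside them can include several for a gene. ACGTG occurred in 12 of the 31 and in 16.6% of all 32851 promoter windows, GCGTG in 18 of 31 and in 28.2% of all, CACGTG in 2 of 31 and in 6.02% of all, and CCGGAA in 4 of 31 and in 12% of all. The members' windows had a median GC content of 60.8% and all windows one of 52.4%, and the motif shares were not adjusted for it. A match of letters is a description and does not show binding.

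Pdk1 had the largest rise with doxycycline of the 33. It lies on chromosome 2 at 71873224 to 71903858 on the plus strand and measured 141 and 147 CPM in untreated day 2, 162 and 179 in doxycycline day 2, 131 and 138 in untreated day 2.5, 341 and 349 in doxycycline day 2.5, and 168 and 165 in Flk1-positive libraries. The doxycycline day 2.5 pair stood above all other libraries. The rise at day 2.5 was 2.56-fold (log2 1.36 ± 0.09, adjusted p = 1.10e-08), and Flk1-positive samples were 2.07-fold below doxycycline samples (log2 -1.05 ± 0.09, adjusted p = 2.80e-07). Against untreated samples of day 2.5 the Flk1-positive samples were 1.24-fold higher (adjusted p = 0.00654). That small difference missed the threshold without either Flk1-positive library or without untreated day 2.5 replicate 1 (adjusted p = 0.0513 to 0.0727). The related kinase gene Pdk3 measured 60.8 and 61.6 CPM in doxycycline day 2.5 libraries and 35.7 and 35.3 in Flk1-positive ones (1.72-fold lower, adjusted p = 1.44e-05), and its log2 difference between doxycycline and untreated samples of day 2.5 was 0.03 ± 0.09 (adjusted p = 0.854). Per kilobase of exon, Pdk1 was 42.5% ± 0.198 of the pair in untreated and 65.0% ± 0.154 in doxycycline samples of day 2.5.

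The members that make and export lactate, Ldha, Ldhb and Slc16a3, were lowest in Flk1-positive libraries. This did not hold for every lactate transporter gene outside the members. Ldha, the subunit that favours lactate formation, measured 1499 and 1518 CPM in untreated day 2, 1423 and 1208 in doxycycline day 2, 1173 and 1084 in untreated day 2.5, 610.5 and 651 in doxycycline day 2.5, and 418 and 414 in Flk1-positive libraries. It fell 1.79-fold with doxycycline at day 2.5 (log2 -0.84 ± 0.09, adjusted p = 4.42e-06) and 1.51-fold from there to Flk1-positive samples (adjusted p = 1.04e-04). Ldhb measured 129 and 132, 152 and 137, 139 and 177, 121 and 137, and 51.6 and 51.1 CPM in that order. Its fall from doxycycline to Flk1-positive samples, 2.51-fold (log2 -1.33 ± 0.11, adjusted p = 4.49e-07), was the largest of the 33 members in that comparison, while doxycycline at day 2.5 gave log2 -0.29 ± 0.11, which missed the threshold (adjusted p = 0.0590) but passed it in 10 of the 18 alternatives (adjusted p from 0.00605 to 0.0484). Ldhb shares 27% of its 50-base words with the pseudogene Gm5514. The Ldhb share of the pair went from 30.1% ± 0.856 in doxycycline to 20.6% ± 0.0134 in Flk1-positive samples per kilobase of exon.

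Slc16a3 lies on chromosome 11 at 120948480 to 120960868 on the plus strand. It measured 178 and 182 CPM in untreated day 2, 109.9 and 79.9 in doxycycline day 2, 149.5 and 135 in untreated day 2.5, 86.8 and 80.4 in doxycycline day 2.5, and 43.4 and 35.9 in Flk1-positive libraries. The treated libraries were below the untreated ones at each day. It fell 1.90-fold at day 2 (log2 -0.92 ± 0.13, adjusted p = 3.83e-04), 1.70-fold at day 2.5 (adjusted p = 3.34e-04) and 2.10-fold from doxycycline to Flk1-positive samples (log2 -1.07 ± 0.13, adjusted p = 1.79e-05). Pdha1, the catalytic alpha subunit of pyruvate dehydrogenase, was 1.21-fold lower in Flk1-positive than in doxycycline samples (adjusted p = 0.0190), a call lost without any one of the 4 libraries compared (adjusted p = 0.0946 to 0.105).

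**Figure D4:**
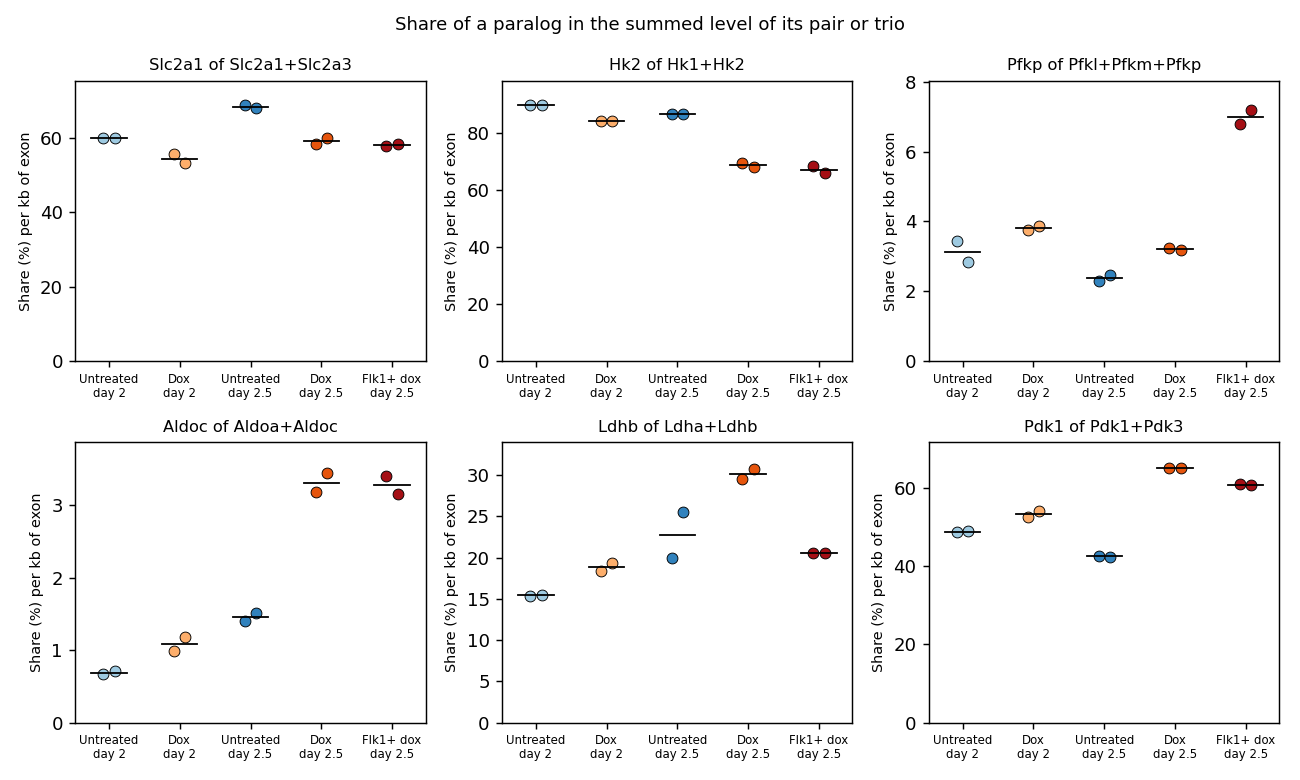
Share of 1 paralog in the summed level of its pair or trio (y axis, percent, from CPM per kilobase of exon) in each library (points) with the group mean (line) for 6 families. The Hk2 share falls from 86.7% in untreated to 68.7% in doxycycline samples of day 2.5, and the Pfkp share is at 6.98% in Flk1-positive samples.

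Citrate cycle genes moved within a narrow range. Over the 11 genes the log2 fold change ran from -0.30 to 0.14 for doxycycline at day 2.5 and from -0.39 to 0.18 for Flk1-positive against doxycycline samples, compared with -1.01 to 1.07 and -1.06 to 0.60 for the glycolytic genes. Mdh2, the mitochondrial malate dehydrogenase, measured 361 and 339 CPM in untreated day 2.5, 293 and 286 in doxycycline day 2.5, and 222 and 221 in Flk1-positive libraries, with no overlap between groups. It was 1.31-fold lower in Flk1-positive than in doxycycline samples (log2 -0.39 ± 0.10, adjusted p = 0.00530) and 1.58-fold lower than in untreated ones (adjusted p = 4.08e-05), and it was the 1 cycle gene whose call in the first of these held under all 18 alternatives. The other 4 were the isocitrate dehydrogenase subunit Idh3g, the succinyl-CoA ligase subunit Sucla2 and the succinate dehydrogenase subunits Sdha and Sdhb, at 1.16- to 1.23-fold lower with adjusted p from 0.0187 to 0.0456. Each of them was lost without doxycycline day 2.5 replicate 2 or either Flk1-positive library, with adjusted p up to 0.262, and Idh3g, Sdha and Sdhb also when doxycycline day 2.5 replicate 1 or one of the untreated day 2 libraries was left out. Sdha was lost too without untreated day 2.5 replicate 1, and Sdhb without either untreated day 2.5 library.

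Doxycycline at day 2.5 gave 2 calls in the cycle. Suclg1, a succinyl-CoA ligase subunit, was 1.23-fold lower (adjusted p = 0.0309) and Mdh2 1.21-fold lower (adjusted p = 0.0461). Both missed the threshold with total counts in place of scaled ones and without either untreated day 2 library, either doxycycline day 2.5 library or untreated day 2.5 replicate 2, and Mdh2 also without untreated day 2.5 replicate 1 (adjusted p = 0.0554 to 0.229). Ogdh, the first subunit of the oxoglutarate dehydrogenase complex, measured 270.4 and 251 CPM in untreated day 2.5, 235 and 240.4 in doxycycline day 2.5, and 261 and 278 in Flk1-positive libraries and passed the threshold in none of the 7 comparisons. Neither did Fh1, the fumarase, which lay between 98.0 and 141 CPM. Cs, the citrate synthase that opens the cycle, measured 307 and 298 CPM in doxycycline day 2.5 libraries and 299.8 and 288 in Flk1-positive ones (log2 -0.04 ± 0.09, adjusted p = 0.730).

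Summed per kilobase of exon, the 16 glycolytic genes reached 1780.3 ± 10.9 CPM in untreated day 2, 1590.1 ± 102 in doxycycline day 2, 1675 ± 49.8 in untreated day 2.5, 1488 ± 15.3 in doxycycline day 2.5 and 867 ± 12.3 in Flk1-positive samples (SD, n = 2). The 11 cycle genes summed to 634 ± 3.82, 628 ± 45.7, 571 ± 15.3, 523 ± 3.94 and 471 ± 0.160 CPM. The ratio of the sums was 2.81, 2.53, 2.93, 2.85 and 1.84, lowest in Flk1-positive samples. Without the 3 most abundant genes of each list it was 1.12, 0.869, 1.19, 1.04 and 0.771, again lowest in Flk1-positive samples, with the doxycycline day 2 group next. The glycolytic sum includes Gapdh, Pgk1, Pgam1 and Eno1, whose levels are uncertain, and leaves out Gm5506. That copy of Eno1 averaged 1041 CPM in untreated day 2 and 374 CPM in Flk1-positive samples. The sums and their ratio are therefore not totals of the pathway. They describe the libraries and were not tested.

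**Figure D5:**
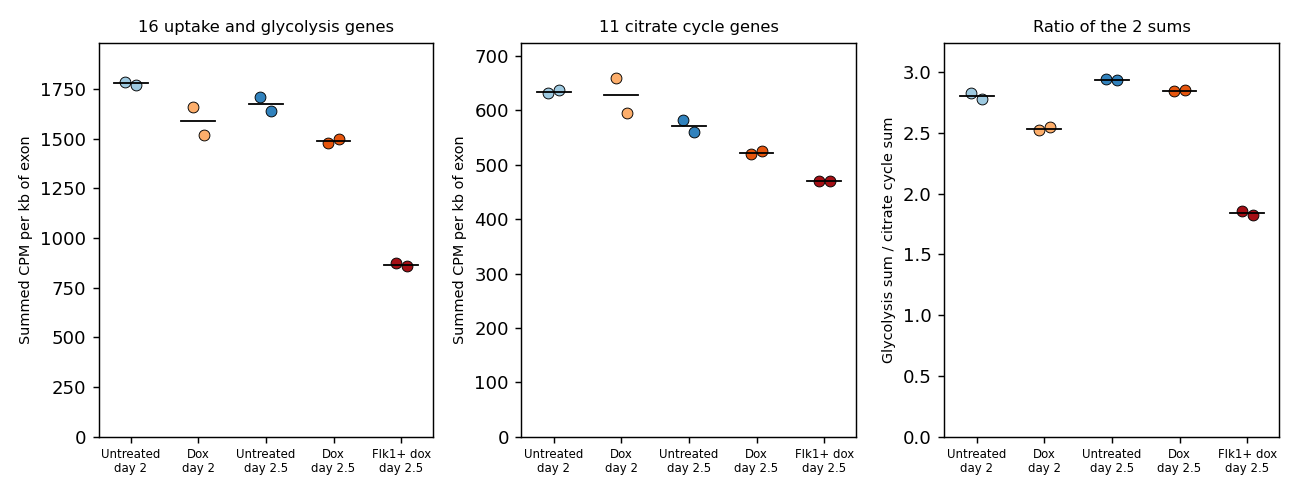
Summed level of the 16 uptake and glycolysis genes (left) and of the 11 citrate cycle genes (middle), in CPM per kilobase of exon, and their ratio (right), for each library (points) with the group mean (line). The ratio is at 1.84 in the Flk1-positive group and between 2.53 and 2.93 in the other groups.

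The time course differed between treated and untreated embryoid bodies for some members. From day 2 to day 2.5, untreated samples had 4 glycolytic genes higher and 4 lower, 1 branch gene lower, and 1 cycle gene higher and 3 lower, against 9.22% of all genes higher and 10.3% lower. Doxycycline samples had 4 glycolytic genes higher and 7 lower, 2 branch genes higher and 1 lower, and 5 cycle genes lower, against 22.9% higher and 23.1% lower. In untreated samples the calls of Aldoc (1.62-fold higher, adjusted p = 0.00199) and Pgam1 (1.73-fold lower, adjusted p = 7.12e-04) were the 2 of 13 kept in all 18 alternatives. The others were Slc2a1, Hk1, Gpi1, Pfkp, Aldoa, Pgk1, Ldha, Cs, Sucla2, Mdh1 and Mdh2. Each of them missed the threshold when at least 1 of the 4 untreated libraries was left out, with adjusted p from 0.0505 to 0.333 over the libraries concerned. Those of Gpi1, Pfkp, Cs and Mdh1 were lost without some libraries of other groups as well, namely doxycycline day 2.5 replicate 2 for Gpi1, doxycycline day 2.5 replicate 1 and Flk1-positive replicate 2 for Pfkp, both doxycycline day 2.5 and both Flk1-positive libraries for Cs, and doxycycline day 2.5 replicate 1 for Mdh1.

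In doxycycline samples the rises over the same interval were led by Aldoc (2.47-fold, adjusted p = 1.05e-06), Pdk1 (2.02-fold, adjusted p = 3.82e-07) and Hk1 (1.84-fold, adjusted p = 6.83e-06). Ldha fell 2.09-fold (adjusted p = 4.92e-07), and in the cycle Suclg1 and Mdh2 each fell 1.52-fold (adjusted p = 1.46e-04 and 1.53e-04). Of the 19 calls, 14 were kept in all alternatives. Gpi1, Aldoa, Eno1, Pdk3 and Idh3a were lost without doxycycline day 2.5 replicate 2 (adjusted p up to 0.182 over all libraries left out), and all of these except Aldoa also without replicate 1. Gpi1 and Eno1 were lost without either untreated day 2 library, Gpi1 without either Flk1-positive library and Eno1 without either doxycycline day 2 library too.

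The effect of doxycycline itself differed between the days for 6 members. It was higher at day 2.5 for Hk1, Pfkl, Aldoc and Pdk1 (4) and lower for Hk2 and Ldha (2), where 6.87% and 5.24% of all genes did. For Pdk1 the log2 difference between the effects was 1.11 ± 0.12 (adjusted p = 2.09e-05) and for Ldha -0.64 ± 0.13 (adjusted p = 0.00392), and both were called in all 18 alternatives. Slc2a1 and Slc16a3 were lower at both days, with log2 differences between the days of -0.17 ± 0.15 and 0.15 ± 0.18 that missed the threshold (adjusted p = 0.495 and 0.641).

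Other genes of these pathways came from lists chosen alongside the members. Their counts for Flk1-positive against doxycycline samples stand beside 20.5% of all genes higher and 21.3% lower. Of 20 further glycolytic genes tested, 5 were higher and 5 lower in Flk1-positive than in doxycycline samples. Among them the regulators Pfkfb2 (log2 1.09 ± 0.14, adjusted p = 1.97e-05) and Pfkfb4 (log2 1.47 ± 0.27, adjusted p = 5.26e-04), which set the level of the activator of phosphofructokinase, were higher. Of 18 genes of lactate and pyruvate transport and gating, 1 was higher and 5 lower, including Bsg (log2 -0.81 ± 0.10, adjusted p = 1.69e-05), the partner that carries lactate transporters to the membrane, and Pdk2 (log2 -1.24 ± 0.19, adjusted p = 1.10e-04). Of 12 further citrate cycle genes, 2 were higher and 3 lower. Of 7 pentose phosphate genes 0 were higher and 2 lower, and of 7 genes of glutamine entry 2 were higher and 0 lower. Glud1, which feeds glutamate carbon into the cycle, rose with doxycycline at day 2.5 by log2 1.59 ± 0.08 (adjusted p = 1.36e-09).

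Of the genes of the HIF pathway outside the members, 22 were tested. With doxycycline at day 2, 0 of 22 were higher and 4 lower, where 3.11% of all genes were higher and 1.56% lower. The 4 were Vegfa (log2 -1.11 ± 0.21, adjusted p = 0.00590), Bnip3, Ddit4 and Kdm3a. At day 2.5, 3 were higher and 1 lower, beside 16.1% and 13.8% of all genes, with Egln3, a HIF prolyl hydroxylase, at log2 0.83 ± 0.11 (adjusted p = 3.23e-05) and Ndrg1 at -1.56 ± 0.16 (adjusted p = 1.97e-06). In Flk1-positive against doxycycline samples 4 were higher and 12 lower, with a median log2 of -0.40, beside 20.5% and 21.3% of all genes and a median of 0.00. The 4 of smallest adjusted p there were all lower, namely Ndrg1 at log2 -2.22 ± 0.20, the mitophagy gene Bnip3 at -1.51 ± 0.15, the mTOR inhibitor Ddit4 at -1.25 ± 0.15 and Mxi1 at -0.74 ± 0.13. Of 10 Myc family genes 1 was higher and 4 lower with doxycycline at day 2.5 (16.1% and 13.8% of all genes), and 4 were higher and 4 lower in Flk1-positive than in doxycycline samples (20.5% and 21.3% of all genes). Myc itself was at log2 -1.64 ± 0.09 (adjusted p = 1.16e-09) in the first and 0.53 ± 0.09 (adjusted p = 1.65e-04) in the second comparison.

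Cell type markers moved alongside the members. Between doxycycline and Flk1-positive samples of day 2.5, the endothelial and blood precursor sum went from 1407 to 1469 up to 3529 to 3656 CPM (8 of 10 tested markers higher and 1 lower) and 6 of 8 pluripotent epiblast markers were lower, among them Nanog (log2 -5.19 ± 0.17, adjusted p = 1.85e-11). Kdr, which encodes Flk1, is among the 8 and went from a mean of 419 to 997 CPM. That part of the rise follows from the label that defines the group. Primitive streak markers summed to 2518 to 2877 CPM in untreated day 2.5 libraries and to 716 to 815 CPM in the doxycycline and Flk1-positive libraries of that day. From doxycycline to Flk1-positive samples, 2 of these 6 markers were higher and 4 lower (median log2 -1.39). Of all genes, 20.5% were higher and 21.3% lower. Leukocyte markers summed to 41.9 to 42.4 CPM in doxycycline and 78.0 to 91.2 CPM in Flk1-positive libraries of day 2.5. Most of that sum was Coro1a, at means of 34.4 and 77.0 CPM. Of 3 leukocyte markers tested, Coro1a was the 1 called higher, and 0 were lower. Cardiac mesoderm markers summed to at most 15.4 CPM and erythroid ones to at most 3.92 CPM in any library, and extraembryonic endoderm markers to 55.8 to 182 CPM. The part of cell composition in the differences of the 33 members was not tested.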

How the data were processed

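RNA was sequenced from 10 libraries of mouse embryoid bodies, 2 in each of 5 groups, grouped by their titles. The authors deposited 1 table of unnormalized counts, with a row for each gene. TopHat, HTSeq and DESeq2 are named with the mm10 build per the submitters' processing notes, without versions or roles. The gene annotation, the strand setting and the treatment of reads with several matches are not stated in the sources used here, so reads of overlapping, antisense and near-identical genes cannot be told apart. The table has 23429 entries, of which 92 spike-ins with 0 counts were left out. The labels do not say that replicates were separate cultures, so the p-values may reflect technical spread alone.

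Counts were analysed with edgeR 4.0.16 in R 4.3.3: filterByExpr (minimum count 10, minimum total 15), TMM scaling, and a robust quasi-likelihood fit with 1 mean per group over all 10 libraries (5 residual degrees of freedom, common biological coefficient of variation 0.100). Each of the 7 comparisons was adjusted by the Benjamini-Hochberg method over 14548 genes, with a threshold of 0.05. CPM uses TMM-scaled library sizes, SD is over 2 libraries, and standard errors come from the F statistic. The 18 alternatives covered DESeq2 size factors, total counts, no filter, the DESeq2 1.42.0 Wald test, the compared groups alone, a replicate block, trends over exon length and GC removed, both together, and each library left out. Another 3 were added after seeing the data: leaving out 4 members of largely shared sequence, adding Gm5506 to Eno1, and transcript length. GENCODE M21 gave length and overlap for 22868 entries, and RefSeq the promoters, of which the 250 bases before the start were searched (for members 1 window, nearest to the annotated start, and for the background every window). The fitting code was tested on simulated data. All 33 members could be named, and up to 4 genes of smallest adjusted p from each other list. The members and lists were chosen with earlier results of these data known.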

Additional observations from a re-analysis of the deposited data

Results flagged for a closer look

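The effect of doxycycline differed between day 2.5 and day 2 for 6 members by a test of the difference itself (edgeR with Benjamini-Hochberg adjustment). It was higher at day 2.5 for 12.1% of the 33 members and lower for 6.06%, beside 6.87% and 5.24% of all genes. Pdk1 had a difference of 1.11 on the log2 scale (adjusted p = 2.09e-05), from 0.24 ± 0.09 at day 2 to 1.36 ± 0.09 at day 2.5. Ldha had a difference of -0.64 (adjusted p = 0.00392), from -0.20 ± 0.09 to -0.84 ± 0.09. These 2 passed the threshold in all 18 alternatives.

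The paralogs Hk1 and Hk2 differed between the days in opposite directions, with 0.47 for Hk1 (adjusted p = 0.0400) and -0.38 for Hk2 (adjusted p = 0.0425). Aldoc had a difference of 0.61 (adjusted p = 0.0339) and Pfkl one of 0.46 (adjusted p = 0.0244). These 4 calls were lost without any one of the untreated libraries of either day or the doxycycline libraries of day 2.5. That of Hk1 was also lost without either Flk1-positive library, and that of Aldoc without Flk1-positive replicate 1. The adjusted p then ran from 0.0672 to 0.186 for Hk1, 0.0922 to 0.173 for Hk2, 0.0504 to 0.141 for Aldoc and 0.0568 to 0.140 for Pfkl.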

How the results depend on the processing

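No called value of a member changed direction. Of the 102 calls of members over the 7 comparisons, 65 were kept in all 18 alternatives and 37 were lost in at least 1; in addition, 41 differences that missed the threshold passed it in some alternative. For doxycycline at day 2, 680 genes were called, and 1046 with no filter, 155 with the compared groups alone, 1108 with the length and GC trends removed and 1292 with the replicate block and those trends removed. Glycolytic members higher there went from 0 to 1 in both fits with trends removed, those lower from 3 to 5 with the DESeq2 Wald test and 6 with the block and trends, and cycle members higher from 0 to 1 with the block and trends. For doxycycline at day 2.5, cycle members lower went from 2 to 0 with total counts and to 4 with the block and trends. For Flk1-positive against doxycycline samples, cycle members higher went from 0 to 1 with total counts and with the compared groups alone, and those lower from 5 to 3 with DESeq2 size factors, 2 with total counts and 3 with the DESeq2 Wald test. Between the days, 2836 genes were called in untreated samples and 4575 with the compared groups alone. In doxycycline samples cycle members higher went from 0 to 2 with total counts and to 1 with the replicate block, with the trends removed and with both. For the interaction, 1763 genes were called and 2855 with the block and trends, where the share of higher genes among the calls went from 56.7% to 46.0%. Glycolytic members higher in it went from 3 to 1 with no filter, and those lower from 1 to 0 with total counts and with the compared groups alone and to 2 in both fits with trends removed. Over the 18 alternatives, branch members called between the days ran from 0 to 2 in each direction in untreated samples and from 1 to 2 in each in doxycycline samples, and from 1 to 2 in each for the interaction. The cause of these shifts was not tested.

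With 1 library left out at a time, a lone sample was assumed to vary like the other groups. Genes called then ran from 246 to 2297 for doxycycline at day 2, where the count rose without either doxycycline day 2 library (1768 without replicate 1 and 2297 without replicate 2) and fell without either untreated one. They ran from 2645 to 5982 for doxycycline at day 2.5, 4020 to 7626 for Flk1-positive against doxycycline, 680 to 4802 between the days in untreated samples and 837 to 4069 for the interaction. For doxycycline at day 2, glycolytic members ran from 0 to 1 higher and from 2 to 7 lower, and cycle members from 0 to 1 in each direction. For doxycycline at day 2.5, glycolytic members lower ran from 3 to 7 and cycle members lower from 0 to 3. For Flk1-positive against doxycycline samples, cycle members ran from 0 to 1 higher and from 1 to 6 lower. Between the days in untreated samples, glycolytic members ran from 1 to 4 higher and from 1 to 4 lower, and cycle members from 0 to 1 higher and from 0 to 4 lower. In doxycycline samples cycle members ran from 0 to 2 higher and from 4 to 8 lower. For the interaction, glycolytic members ran from 0 to 4 higher and from 0 to 3 lower, and cycle members lower from 0 to 3.

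Replicate numbers did not pair the samples: same-numbered libraries had correlations of their deviations between -0.03 and 0.10, and the labels do not say that a number marks a shared batch. The replicate block moved no count of called genes by over 1.5 times unless the trends were removed with it. With 2 libraries a group, small changes such as those of most citrate cycle genes lie near what the depth and spread can show, and members with copies elsewhere carry that doubt whatever the setting.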
